A study of Homo sapiens with 17 samples.

Results

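RN7SK, RN7SL1, RN7SL2, RMRP, RPPH1, RNY1, RNY3 and RNY4 are 8 short human genes that RNA polymerase III transcribes into structural non-coding RNAs. Their pausing sites were chosen by position: a row of a deposited table belonged to a gene when it lay on the gene's strand within its GENCODE release 29 span, or up to 200 bp past its end, on GRCh38. By this rule the genes held 73 rows at 38 distinct positions, of 204137 rows at 158141 positions in all. The measurements came from time-variant precision run-on sequencing of HEK293, an established line of human embryonic kidney origin, in which engaged polymerases extend their RNA for a set time and the RNA 3′ ends are sequenced. The run-on buffer either contained the detergent sarkosyl or was sarkosyl-free, and run-on lasted 0.5, 2, 8 or 32 min in 2 replicates, giving 8 libraries per buffer. Each buffer and replicate number has 1 table of fitted pausing times, called a series here. A further sample of sarkosyl run-on, titled "Trp treatment", was not analysed here.

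Polymerase III makes short, abundant RNAs and releases them at a run of T in the non-template strand, so the gene end is where the finished RNA leaves the enzyme. RN7SK, RMRP, RPPH1 and the Y RNA genes carry their promoter upstream of the start, and the RN7SL genes combine upstream and internal elements. The La protein binds the U-rich 3′ tail that termination leaves on these RNAs. Sarkosyl strips many proteins from chromatin and blocks new initiation while engaged polymerases go on. The tables list 3′ end positions and do not separate growing from finished RNA.

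The ends of 6 of the genes are shown first because 7 of the 8 positions listed in all 4 series lay there. The bases are the RNA-like strand in DNA letters, 5′ to 3′, copied from GENCODE release 29 transcripts. Capitals mark positions listed in at least 1 series. Bases past the annotated ends of RN7SK and RPPH1 were read from overlapping transcripts, and the listed position RMRP 272, outside annotated transcripts, is not printed. Positions within a gene are counted from 1 at its annotated start. The first line is from chr6:52995909-52995950 on the plus strand, then come chr9:35657751-35657790 minus, chr14:20343071-20343114 minus, chr7:148987136-148987175 minus, chr7:148983817-148983856 plus and chr7:148963371-148963410 plus.
RN7SK: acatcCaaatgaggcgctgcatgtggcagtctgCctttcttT
RMRP: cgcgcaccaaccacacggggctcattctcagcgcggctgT
RPPH1: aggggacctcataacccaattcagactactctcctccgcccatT
RNY1: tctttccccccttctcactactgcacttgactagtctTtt
RNY3: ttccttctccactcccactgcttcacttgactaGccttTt
RNY4: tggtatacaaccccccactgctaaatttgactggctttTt

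All 8 genes are exonic over their whole annotated length, with 1 exon each. RN7SK spans chr6:52995621-52995948 on the plus strand and overlaps the annotated gene RF00100 on that strand. RN7SL1 spans chr14:49586580-49586878 on the plus strand and overlaps the annotated gene AL139099.4 on that strand. RN7SL2 spans chr14:49862550-49862849 on the minus strand inside the long non-coding gene AL627171.2. RMRP lies at chr9:35657751-35658018 on the minus strand. RPPH1 lies at chr14:20343075-20343407 on the minus strand, within AL355075.4 and opposite the protein-coding gene PARP2. The Y RNA genes cluster on chromosome 7: RNY1 at chr7:148987136-148987248 on the minus strand, RNY3 at chr7:148983755-148983856 on the plus strand, and RNY4 at chr7:148963315-148963410 on the plus strand. RN7SL1 and RN7SL2 were 98.3% identical over their aligned length. How reads that fit both were counted is not given in the sources used here, so their values are uncertain with respect to each other.

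A pausing time is the reciprocal of the fitted release rate of a site, and a larger value means a slower release. Its unit was not stated, the tables hold no read numbers, and the depth behind a site is unknown. The 4 tables were fitted separately and their levels differed: the median pausing time of a table was 1.49 and 1.34 in sarkosyl replicates 1 and 2, and 2.23 and 8.00 in sarkosyl-free replicates 1 and 2. Levels are therefore given as deposited, as the log2 difference from the median of the same table, and as the percentile among all sites of that table. Pausing times at the 2967 sites that all 4 tables shared were closer, with medians of 1.22, 1.28, 1.32 and 1.43. The libraries are described as biological duplicates, with no statement of separate cultures, so the spread between series may be partly technical. No batch is named in the labels, and any that follows the buffer cannot be told apart from it.

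The member genes were listed in every series. Sarkosyl replicate 1 held 12 of their sites and sarkosyl replicate 2 held 20. Sarkosyl-free replicate 1 held 24 and sarkosyl-free replicate 2 held 17. Positions at the gene ends recurred and positions elsewhere mostly did not. Of 12 positions within 10 bp of an annotated end, 8 were in all 4 series (66.7%) and 1 was in a single series. Of the 26 positions elsewhere, 0 were in all 4 series and 20 (76.9%) were in a single series. In the whole tables, 1.88% of positions were in all 4 series and 78.2% were in 1. Recurrence at ends was not particular to the members. Small nucleolar and small Cajal body RNA genes held 264 and 238 end sites in sarkosyl replicates 1 and 2. They held 299 and 274 in sarkosyl-free replicates 1 and 2, and 194 of these positions were in all 4 series. The map of listed sites along the genes shows columns of 4 symbols at the ends and scattered symbols inside the genes. Of the 73 rows, 58.9% lay past the end or in the last of 3 equal stretches of the gene. No same-strand site was listed in the 200 bp before any of the 8 starts in any series.

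**Figure D1:**
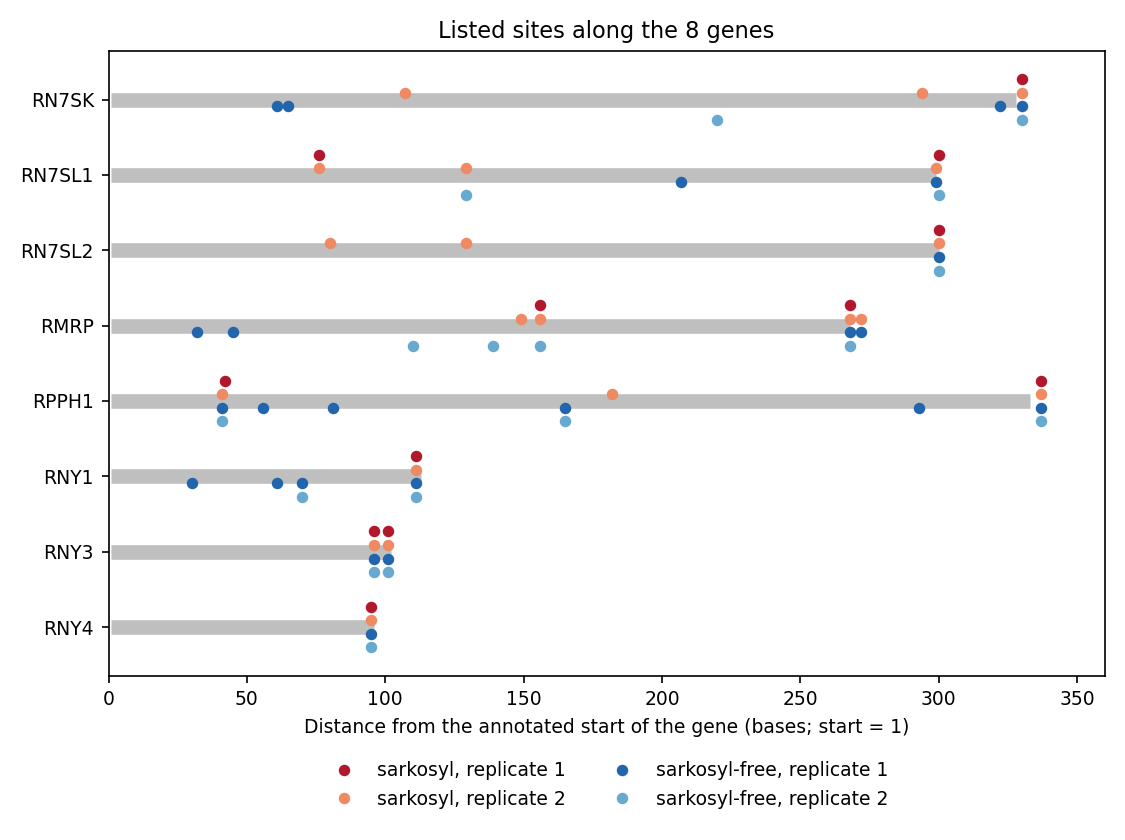
Listed sites along the 8 genes, with the distance from the annotated start in bases on the x axis; grey bars are the annotated genes and each colour is 1 series, stacked in the order of the legend. All 8 positions found in 4 of 4 series lie within 10 bp of a gene end.

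The base under the recurring sites differed from that under most sites of the tables. Over all sites in annotated exons, the listed base was C or G in the great majority: with sarkosyl T made up 2.95% in replicate 1 and 3.99% in replicate 2, against 2.83% and 3.09% when it was absent. Of the 10 member end positions with a readable base, 8 were T, 1 was C and 1 was G. Of the 26 positions elsewhere in the genes, 17 were C, 4 were G, 4 were T and 1 was A. The 8 positions in all 4 series were 7 T and 1 G, the G being RNY3 96. Most of these T lay in a run, given here as far as annotated bases reach: RN7SK 330 lies in the run 328 to 330, RNY1 111 lies in the run 110 to 113, RNY3 101 in 99 to 102, and RNY4 95 in 92 to 96. RMRP 268 is a T that follows a G, the last annotated base of the gene. The base at listed positions also differed between series, with 73.1% and 71.6% C with sarkosyl and 50.2% and 23.4% C without it.

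Deposited pausing times at the gene ends were longer in the sarkosyl tables than in the sarkosyl-free tables at each of the 8 shared end sites. In 2967 sites shared by the 4 series, both sarkosyl values exceeded both sarkosyl-free values at 29.2% as deposited, at 31.6% after centring and at 39.6% by percentile, and for the members the count was 8 of 8 by each of the 3 measures. At 0 of 8 sites did the authors' quartile ranges of both sarkosyl series clear those of both sarkosyl-free series. No adjusted p-value passed 0.05 at any of them. The values follow by the role of each RNA.

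RN7SK makes the scaffold of the particle that holds the elongation kinase P-TEFb inactive. At RN7SK 330, just past the annotated end, the pausing time was 1.01 and 1.47 with sarkosyl in replicates 1 and 2 and 0.65 in both sarkosyl-free series. The groups did not overlap, and the difference was 1.04 on the log2 scale (SE 0.72; limma, adjusted p = 0.408). This was the lowest of the 8 sites in sarkosyl replicate 1, at percentile 32.2 of that table.

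RN7SL2 makes the RNA of the signal recognition particle, which directs secreted proteins to the endoplasmic reticulum. Its last base, RN7SL2 300, had pausing times of 2.99 and 2.04 with sarkosyl, against 1.32 and 0.790 when it was absent. The lower sarkosyl value exceeded the higher sarkosyl-free value, with a log2 difference of 1.41 (SE 0.77; limma, adjusted p = 0.316). At RN7SL1, the near-identical gene, the end was listed at neighbouring positions: position 300 had 2.31 in sarkosyl replicate 1 and 0.631 in replicate 2 of the sarkosyl-free series, and position 299 had 2.35 in sarkosyl replicate 2 and 0.996 in replicate 1 of the sarkosyl-free series. Taken within 1 bp, these values showed the same order of the buffers, and they were not tested because no single position was shared.

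RMRP makes the RNA of RNase MRP, an enzyme of ribosomal RNA processing. The pausing time at RMRP 268 was 3.55 and 2.28 in the sarkosyl tables, against 0.668 and 0.562 in the sarkosyl-free tables. Here the buffers lay furthest apart of the 8 sites, 2.35 on the log2 scale (SE 0.74; limma, adjusted p = 0.173). A listed site 4 bases further, RMRP 272, had 2.101 in sarkosyl replicate 2 and 0.885 in sarkosyl-free replicate 1. It was in no other series and shows the same order in the values it has.

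RPPH1 makes the RNA of RNase P, which trims the 5′ ends of transfer RNA precursors. RPPH1 337, in a run of T 4 bases past the annotated end, had 1.65 and 1.22 with sarkosyl, against 1.03 and 1.21 when it was absent. Sarkosyl replicate 2 and sarkosyl-free replicate 2 were almost equal as deposited. The log2 difference was the smallest of the 8, 0.48 (SE 0.72; limma, adjusted p = 0.717), and was 0.22 without sarkosyl replicate 1 and 0.74 without sarkosyl replicate 2.

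The Y RNAs bind the Ro60 protein and take part in RNA quality control. RNY4 95 had pausing times of 3.83 and 2.49 with sarkosyl, against 0.518 and 1.22 when it was absent. Its log2 difference was 2.1 (SE 0.80; limma, adjusted p = 0.199), next in size after RMRP 268. The replicates were more than 2-fold apart without sarkosyl, yet both stayed below the sarkosyl values. RNY1 111 had 3.36 and 2.20 with sarkosyl, against 0.979 and 1.18 when it was absent, and differed on the log2 scale by 1.48 (SE 0.73; limma, adjusted p = 0.281).

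RNY3 held a pair of end sites 5 bases apart that behaved alike in direction and unlike in level. RNY3 101, in the T run, had 2.53 and 1.94 with sarkosyl, against 0.662 and 0.669 when it was absent, and differed on the log2 scale by 1.87 (SE 0.72; limma, adjusted p = 0.200). RNY3 96, the G upstream of it, had 1.51 and 1.39 with sarkosyl, against 0.484 and 0.775 when it was absent, and differed on the log2 scale by 1.38 (SE 0.73; limma, adjusted p = 0.305). In both sarkosyl series the T site was the longer of the pair, while in sarkosyl-free replicate 2 the order was the opposite.

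**Figure D2:**
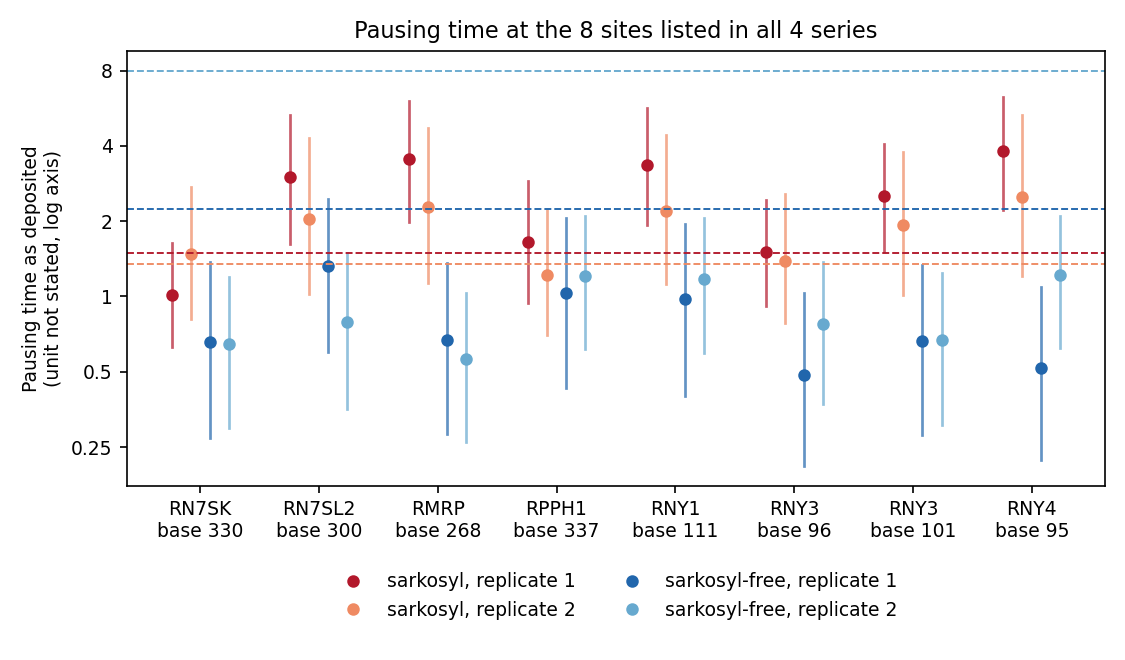
Deposited pausing time on a log axis (unit not stated) at the 8 member sites listed in all 4 series; points are the deposited values, vertical bars the authors' quartile range, and dashed lines the median of each table in the colour of its series. Both sarkosyl points lie above both sarkosyl-free points at each site, and at 0 of 8 sites are the sarkosyl bars clear of the sarkosyl-free bars.

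Across the 8 sites the median log2 difference was 1.44, beside 0.22 over all 2967 shared sites. With limma, 0 of 8 members and 0% of all shared sites passed an adjusted p of 0.05, and 3 of 8 had an unadjusted p under 0.05, all longer with sarkosyl, against 12% of all sites in that direction. The 3 were RMRP 268, RNY3 101 and RNY4 95. In either direction, 23.2% of all shared sites had an unadjusted p that small. With 2 series against 2 an exact permutation test of a single site cannot go below p = 0.333. Calls depended on the sarkosyl-free series. A fit that leaves out 1 series has a single series in that buffer, whose spread it cannot measure. Without sarkosyl-free replicate 1, 3 of 8 members passed an adjusted p of 0.05 (RMRP 268, RNY3 101 and RN7SL2 300; limma), beside 53.8% of all shared sites. Without sarkosyl-free replicate 2, 2 of 8 passed (RMRP 268 and RNY4 95), beside 22.2% of all shared sites. The members' share was below the background in the first of these fits and near it in the other. Without either sarkosyl series, 0 passed.

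The replicate error at the members was of the order seen over whole tables. The sarkosyl series shared 10 member positions, 83.3% of those in replicate 1 and 50% of those in replicate 2, against 37.1% and 37.8% for whole tables. At these the replicates differed by a median of 0.575 on the log2 scale after centring, beside 0.559 over all sites the sarkosyl series shared. The sarkosyl-free series shared 11 member positions, 45.8% and 64.7% of each, against 21.0% and 33.3% for whole tables. Their median difference was 0.953, beside 1.43 over all shared sites of that buffer.

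Internal sites numbered 3 and 10 in sarkosyl replicates 1 and 2, and 13 and 8 in sarkosyl-free replicates 1 and 2. Their pausing times spread widely. Stretches where at least 2 internal positions lay no more than 35 bases apart are shown with 10 bases on either side. These stretches hold most of the internal sites, and listed positions are in capitals as above. The stretches are RN7SK bases 51 to 75 (chr6:52995671-52995695, plus strand), RMRP bases 22 to 55 (chr9:35657964-35657997, minus strand), RMRP bases 100 to 166 (chr9:35657853-35657919, minus strand). The others are RPPH1 bases 31 to 91 (chr14:20343317-20343377, minus strand), RPPH1 bases 155 to 192 (chr14:20343216-20343253, minus strand) and RNY1 bases 20 to 80 (chr7:148987169-148987229, minus strand).
RN7SK: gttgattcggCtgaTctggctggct
RMRP: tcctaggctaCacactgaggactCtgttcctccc
RMRP: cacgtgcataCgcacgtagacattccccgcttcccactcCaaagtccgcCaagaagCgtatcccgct
RPPH1: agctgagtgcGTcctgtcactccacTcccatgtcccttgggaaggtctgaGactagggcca
RPPH1: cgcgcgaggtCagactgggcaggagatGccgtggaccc
RNY1: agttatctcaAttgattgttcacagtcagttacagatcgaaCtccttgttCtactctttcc

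The longest member pausing times were internal and came from the sarkosyl-free series. RNY1 70, a C in the middle of the gene, had 25 in sarkosyl-free replicate 1 and 142.9 in replicate 2, at percentiles 98.0 and 99.7 of their tables, and was listed in neither sarkosyl series. RMRP 110 had 333.3 in sarkosyl-free replicate 2 and was in no other series. The deposited rates carry 3 decimals, so times of this size take few distinct values. In RN7SK, sites at 61 (15.9) and, 6 bases before the annotated end, at 322 (8.62) in sarkosyl-free replicate 1 and at 220 (38.5) in replicate 2 were each listed once. The sites of RN7SK therefore differed from series to series, apart from the one at 330.

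Short internal times were listed beside these long ones. RPPH1 81 had 0.220 in sarkosyl-free replicate 1, the shortest of all member rows, and RMRP 139 had 0.292 in sarkosyl-free replicate 2. Both were in a single series, so they have no replicate. RPPH1 41 was in 3 series, with 2.18 in sarkosyl replicate 2, and 0.432 and 4.17 in sarkosyl-free replicates 1 and 2. The sarkosyl value lay between the sarkosyl-free values, which were far apart. RPPH1 165 was in both sarkosyl-free series, with 1.13 and 6.06.

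The internal sites listed in both sarkosyl series were RMRP 156 and RN7SL1 76. RMRP 156 had 2.80 and 1.499 with sarkosyl, and 10.5 in sarkosyl-free replicate 2. Its order of the buffers was the reverse of that at RMRP 268. RN7SL1 76 had 1.42 and 0.811 with sarkosyl and was listed in neither sarkosyl-free series. RN7SL1 129 had 1.11 in sarkosyl replicate 2 and 0.661 in sarkosyl-free replicate 2. The corresponding stretch of RN7SL2 held sites at 80 (0.770) and 129 (1.31), both in sarkosyl replicate 2 only.

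Ranked within their tables, end sites stood above the middle with sarkosyl and below it without. The median percentile of end sites was 67.1 and 72.5 with sarkosyl (9 and 10 sites) and 31.2 and 13.3 without it (11 and 9 sites). Their median deposited times were 2.53 and 2.07, against 0.885 and 0.775. Internal sites had median percentiles of 69.8 and 52.5 with sarkosyl (3 and 10 sites) and 34.1 and 50.3 without it (13 and 8 sites). The end sites of sarkosyl-free replicate 2 formed a narrow band, from percentile 10.4 to 17.5, while its internal sites ran from 3.90 to 99.97.

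**Figure D3:**
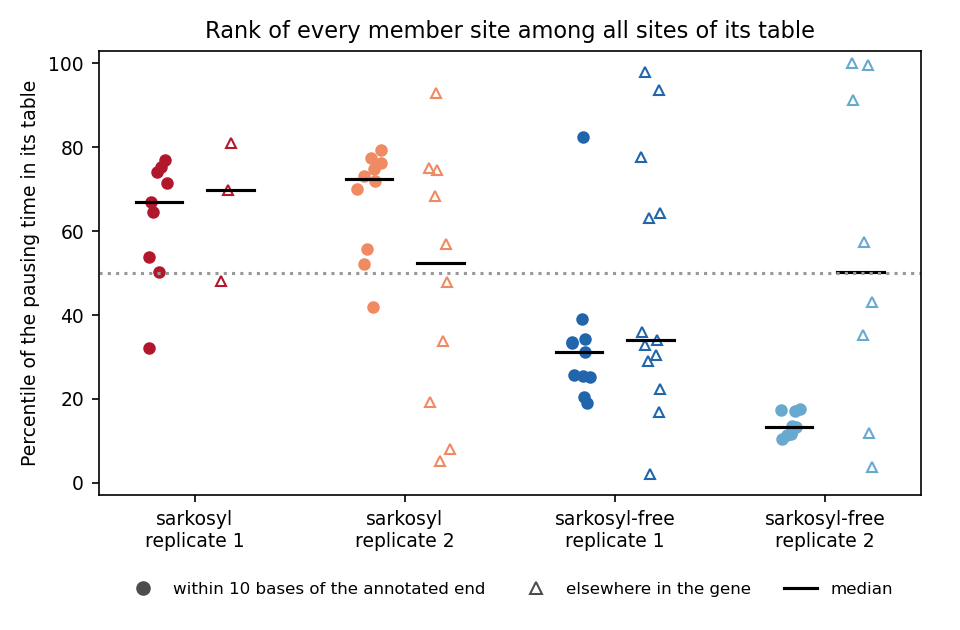
Percentile of each member site among all sites of its own table (y axis) in the 4 series (x axis); filled circles are sites within 10 bp of the annotated end, open triangles are other member sites and black lines are medians. End sites have medians of 67.1 and 72.5 with sarkosyl and 31.2 and 13.3 without it, and internal sites are spread over most of the range.

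Over all member sites the median log2 time minus the table median was 0.67 ± 0.23 with sarkosyl and −1.98 ± 1.11 without it (SD, n = 2), a difference of 2.65. As deposited, without reference to the table, the members had median times of 2.66 and 1.90 with sarkosyl, against 0.972 and 1.18 when it was absent. Much of the distance between the buffers came from the table medians: centred on the sites shared by all 4 series, the difference was 1.21. A filter on the deposited uncertainty turned the direction, but it also selected on the time itself. When only sites with a quartile ratio below the median of their table were kept, the median time of the tables moved to 0.884 and 1.003 with sarkosyl and to 6.29 and 19.2 without it. It left 4, 6, 7 and 4 member sites in the 4 series, of which 3, 1, 1 and 0 were end sites. Centred on the medians of the kept sites, the difference over these was −0.68, with sarkosyl the shorter.

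The deposited uncertainty was wider at the members than in their tables. The upper quartile of a member site exceeded the lower by a median ratio of 2.96 and 3.64 with sarkosyl, against 2.75 and 3.26 in the tables. Without sarkosyl the ratios were 4.84 and 3.41, against 3.44 and 2.22. The part of this uncertainty in the buffer difference was not tested.

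By gene, the centred median was higher in both sarkosyl series than in both sarkosyl-free series for 7 of the 8 genes, beside 29.6% of the 6206 genes with a site in all 4 series. RNY4 had the widest gap between buffers and RN7SK was the exception. As deposited, with no centring, the count was 3 of 8 genes above (RN7SL1, RNY3 and RNY4) and 1 below (RN7SK), beside 7.85% of genes above and 41.5% below. The order of the buffers by gene median thus depended on the scale, while at the 8 shared end sites it did not. The size of the difference did depend on it there. On the log2 scale the end-site medians differed by 3.27 from table medians, 1.83 from shared-site medians and 1.70 as deposited.

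RNY4, with its 1 site, had centred medians of 1.36 and 0.89 with sarkosyl and −2.11 and −2.71 without it. RNY3, with 2 sites in each series, had 0.38 and 0.29 against −1.98 and −3.47. Both Y RNA genes held end sites alone, so their gene values repeat the site values above. RMRP, with 2 and 4 sites with sarkosyl and 4 and 4 without it, had 1.08 and 0.68 against −1.54 and −1.72. RPPH1, with 2, 3, 6 and 3 sites, had 0.90 and −0.15 against −1.44 and −0.94. In RPPH1 the sarkosyl replicates lay well apart, both above the sarkosyl-free values.

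The signal recognition particle genes had lower centred gene medians in sarkosyl replicate 2 than in sarkosyl replicate 1, as had all other members except RN7SK. RN7SL2, with 1, 3, 1 and 1 sites, had 1.002 and −0.03 with sarkosyl and −0.75 and −3.34 without it. RN7SL1, with 2, 3, 2 and 2 sites, had 0.28 and −0.28 against −1.14 and −3.63. In both genes the sarkosyl-free replicates were far apart on the centred scale and closer as deposited, with 1.32 and 0.790 at RN7SL2 and 1.01 and 0.646 at RN7SL1.

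RNY1 and RN7SK had long internal sites in the sarkosyl-free tables, and in these genes the buffers came close. RNY1, with 1, 1, 4 and 2 sites, had 1.17 and 0.71 against −0.15 and 0.70. RN7SK, with 1, 3, 4 and 2 sites, had −0.56 and 0.48 against 1.38 and −0.68, so its groups overlapped.

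The gene-level test needed 3 sites in each series and could be made for 1859 genes, of which 0% passed an adjusted p of 0.05 (limma) and 9.25% an unadjusted p under 0.05. None of the 8 genes had 3 sites in each series. With at least 1 site, 0 of 8 members passed an adjusted p of 0.05, beside 0% of 6206 genes, and 3 of 8 had an unadjusted p under 0.05, all longer with sarkosyl, beside 12.8% of genes and 11% in that direction. These were RNY4 with a log2 difference of 3.53 (SE 0.75; limma, adjusted p = 0.296), RNY3 with 3.06 (SE 0.84; limma, adjusted p = 0.296) and RMRP with 2.51 (SE 0.73; limma, adjusted p = 0.297). RN7SK was the only gene with a negative difference, −0.39 (SE 0.98; limma, adjusted p = 0.901). The sign at RN7SK turned when 1 series was left out, to 0.13 without sarkosyl replicate 1 and 0.64 without sarkosyl-free replicate 1. The median log2 difference over the 8 genes was 2.45, beside 0.42 over all 6206 genes. It was 3.11 without sarkosyl-free replicate 1 (0.38 over all genes) and 1.53 without sarkosyl-free replicate 2 (0.37 over all genes). These 2 fits hold a single sarkosyl-free series, whose spread they cannot measure.

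Longer times under sarkosyl were also listed at the ends of other small RNA genes. Small nucleolar and small Cajal body RNA genes, whose ends are trimmed from longer RNAs, held 194 sites within 10 bp of an end in all 4 series, of which 122 had both sarkosyl values above both sarkosyl-free values and 4 below. Their median log2 difference was 1.17, beside 1.44 for the members, and this gap was not tested. Other genes of the misc_RNA class, which holds copies of the RN7SL, RN7SK and Y RNA genes, had 26 such sites, 21 above and 1 below, with a median of 1.68. Ribozyme, vaultRNA, sRNA and scRNA genes were counted in this class. Small nuclear RNA genes, a class of spliceosomal RNA genes and their copies, had 25 such sites, 4 above and 6 below, with a median of −0.61. The member RN7SK has the same annotated class and is not counted among them. The listed base was T at 25.5% to 29.2% of the end sites of small nucleolar genes, at 38.6% to 51.4% of those of misc_RNA genes and at 34.2% to 53.1% of those of small nuclear RNA genes.

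**Figure D4:**
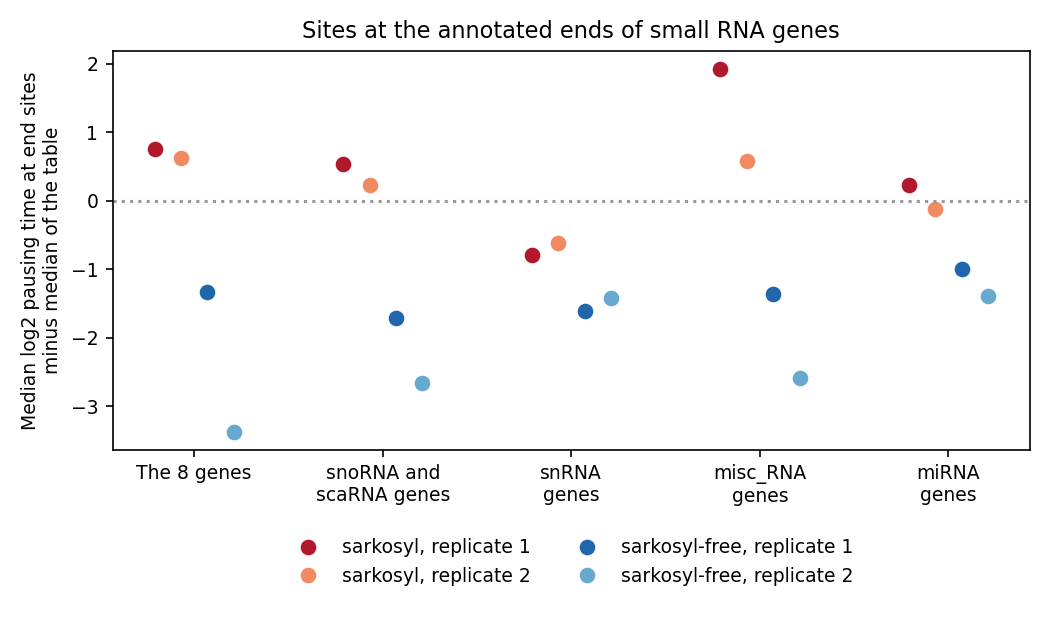
Median log2 pausing time of sites within 10 bp of the annotated end, minus the median of the whole table (y axis), for the 8 genes and for other genes of up to 400 bp by GENCODE class (x axis); each point is 1 series. Relative to the table medians, sarkosyl points lie above sarkosyl-free points in each class, and small nuclear RNA genes are below 0 in all 4 series. As deposited, the medians of small nuclear RNA genes overlap, with 0.860 and 0.877 with sarkosyl and 0.729 and 2.98 without it. Their 25 end sites in all 4 series have a median log2 difference of −0.61. The misc_RNA group includes ribozyme, vaultRNA, sRNA and scRNA genes.

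A further list held vault RNA, U6, U6atac, 5S and related genes of polymerase III. Most of its 537 annotated genes were 5S copies named RNA5SP, and which polymerase transcribes these copies was not tested. Of the list, 16 and 21 genes held a site with sarkosyl and 51 and 30 without it. Their centred medians with sarkosyl were 0.40 and −0.04, against −0.85 and −1.31 when it was absent. Deposited medians overlapped, with 1.97 and 1.31 with sarkosyl and 1.23 and 3.23 without it. RN7SL3, a further copy of the signal recognition particle gene, had median times of 40 and 4.44 with sarkosyl and 1.29 and 0.999 without it. These are medians over 3 to 5 sites of the gene, with a much longer value in sarkosyl replicate 1. The deposited gene medians of RN7SL1 had the same order of the buffers, with 1.82 and 1.11 against 1.01 and 0.646. Those of RN7SL2 overlapped, with 2.99 and 1.31 against 1.32 and 0.790. How reads that fit several of these copies were counted is not given in the sources used here. RNA5SP370, a 5S copy, had 40.8 and 3.06 against 1.27 and 0.421, also without overlap.

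VTRNA1-3, a vault RNA gene, had 2.35 and 1.86 with sarkosyl and 0.442 and 57.0 without it, so its groups overlapped. RNU6ATAC, the U6atac gene of the minor spliceosome, had 1.1 and 1.2 with sarkosyl and 0.997 and 7.51 without it. RNU6-2, a U6 gene, had 1.36 and 1.01 against 0.369 and 13.3. In all 3 genes the sarkosyl-free medians fell on either side of the sarkosyl medians. The same held for the deposited medians of RPPH1, with 2.79 and 1.22 against 0.824 and 4.17, and of RNY1, with 3.36 and 2.20 against 2.01 and 13.0.

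The polymerase II genes whose products work with these RNAs had almost no end sites, which held for genes outside the small RNA classes in general. In sarkosyl replicate 1, the 58665 genes other than the members had 504 end sites. Of these, 400 were at the 7026 small RNA genes. The counts were 344 of 456 in sarkosyl replicate 2, and 457 of 669 and 393 of 539 in sarkosyl-free replicates 1 and 2. The list of partner proteins of the 7SK, signal recognition, RNase P, RNase MRP and Ro particles had 19 or 20 of 26 annotated genes with a site in a series, and 1 site within 10 bp of an annotated end over all series. Its centred medians with sarkosyl were −0.34 and 0.23, against −0.11 and 0.48 when it was absent, so the buffers overlapped. MEPCE, which caps 7SK RNA, SRP9, POP4, SRP68 and HEXIM1 held the most sites among its genes present in all series. The list of polymerase III subunits and transcription factors had 22 to 27 of 31 genes with a site, 0 end sites, and centred medians between 0.01 and 0.24. GTF3C4, GTF3C1, SNAPC5, POLR1C and GTF3C6 held the most sites there.

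The small nuclear RNA list of polymerase II had 21 or 22 of 23 genes with a site, and between 17 and 19 end sites per series. Its centred medians with sarkosyl were −0.56 and −0.12, against −1.16 and −1.44 when it was absent. SNORD3A, SNORD3C, SNORD3B-1 and SNORD3B-2, which encode U3 RNA, and RNU2-2P held the most sites. RNU2-2P had median times of 4.15 and 2.75 with sarkosyl and 0.854 and 6.27 without it, with overlapping groups.

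The genes whose 4 centred medians were nearest to those of all member sites, among 919 genes with 5 or more sites in each series, were ACADM, NOL7, THAP9-AS1, ZNF584 and TBRG4. Their Euclidean distances to the members were 0.214, 0.584, 0.695, 0.720 and 0.731 on the log2 scale. ACADM, a gene of mitochondrial fatty acid oxidation, had 0.90 and 0.51 with sarkosyl and −1.27 and −2.95 without it, beside 0.83, 0.50, −1.20 and −2.76 for the members.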

How the data were processed

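The values used are 4 deposited tables, 1 per buffer and replicate number, which the authors fitted over 4 run-on times, as inferred from the table names and sample titles. Per the file headers, a row holds a position, a strand, summary values of a sampled estimate (its quartiles and median among them) and a pausing time; the deposited pausing time was 1 divided by the median in every row, a score whose time unit was not stated. Reads were processed with cutadapt 1.14, HISAT2 2.1.0, SAMtools and bedtools on hg38, per the submitters' processing notes. The model, its prior, the rule for listing sites and the treatment of reads that fit several places are not given in the sources used here.

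Positions were assigned to GENCODE release 29 genes by strand. Bases at listed positions in exons were compared between strands, and the positions were read as counting from 1. Log2 pausing times were analysed with Python 3.11.15, numpy 2.4.6, pandas 2.3.3 and R 4.3.3, sequences were aligned with Biopython 1.88, and figures were drawn with matplotlib 3.10.9. Sites shared by all 4 series were centred on their median per series and compared with limma 3.58.1, with Benjamini-Hochberg adjustment over all 2967 sites and a threshold of 0.05; genes were compared likewise by their median. This step was also run on simulated data, and the outcome of that run is not given here. Alternatives covered centring, scaling, a replicate block, filters on sites, the end window and leaving out each series.

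All 8 genes are named. So are the sites in all 4 series, the longest and shortest sites repeated within a buffer, up to 5 genes per comparison list and the 5 genes most like the members; further sites named were picked after their values were seen. The members and the lists were chosen with earlier results of these data known. Same-numbered replicates were not treated as pairs. Unmapped value columns numbered 0, and 1 sample was not analysed here. The end sequences of RN7SL1 and RN7SL2 are not reported here.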

Additional observations from a re-analysis of the deposited data

How the results depend on the processing

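At the 8 shared end sites the times were longer with sarkosyl under all 72 combinations of a site and an alternative. Most of these could not have turned the sign. Both sarkosyl values exceeded both sarkosyl-free values at each site before and after centring, so leaving out a series or adding a block keeps the direction. The median log2 difference of 1.44 was 1.74 after quantile normalization and ran from 1.28 to 1.77 when a series was left out. The count of members past the threshold (limma, adjusted p) ran from 0 to 3 at sites and from 0 to 5 at genes when a series was left out, in fits that called up to 1597 of 2967 sites and 1190 of 6206 genes. It was 0 under the other alternatives that could be fitted, among them quantile normalization (158 sites called), normal scores (231) and a replicate block (161 sites called, 0 members at sites and genes); same-numbered replicates did not deviate together (correlation of 0.01 across sites). The member level difference of 2.65 was 1.67 with means, 1.05 without end sites and 1.21 centred on shared sites, and ran from 1.87 to 3.43 when a series was left out. The sarkosyl-free level of −1.98 was −0.56 without end sites and −0.36 centred on shared sites. With more certain sites alone, centred on their own medians, the levels were 0.38 with sarkosyl and 1.05 without it, a reversed difference of −0.68; this filter kept shorter times with sarkosyl and longer times without it, and 1 end site in the sarkosyl-free series. The 7 genes above were 3 without end sites, of 3 that could be compared, 4 centred on shared sites and 3 with no centring. Rows in the second of 2 equal stretches or past the end made up 71.2%. No member could be fitted at sites of higher certainty, or at genes with 3 or more sites. The depth behind the sites is unknown, and its effect was not tested.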

Other observations

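Sites were also listed in copies of the member genes elsewhere in the genome. These were counted within the annotated span alone, without the 200 bp past the end used for the members. The share of all genes with a site in that window is not given here, so the counts have no background beside them. Of 678 genes named as RN7SL copies, 7, 7, 8 and 7 held a site in sarkosyl replicates 1 and 2 and sarkosyl-free replicates 1 and 2. Of 293 RN7SK copies, 7, 7, 14 and 7 held one, and of 53 Y RNA copies, 5, 3, 7 and 3. The 3 copies of RMRP and RPPH1 held 0 sites in each series. On the opposite strand of the 8 genes and 200 bp to either side, 1 site was listed over all series, in sarkosyl replicate 1 near the start of RMRP. Among themselves the Y RNA genes were far less alike than the RN7SL genes, with 72.6% identity between RNY1 and RNY3, 63.7% between RNY1 and RNY4 and 66.3% between RNY3 and RNY4.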
